A study of Oryzias latipes with 27 samples.

Results

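The let-7 family was followed across medaka (Oryzias latipes) gonads. Its members were taken by name, as every row of the deposited miRNA table whose name begins with let-7. The rule found 23 of the 437 rows, of which 10 name a 5p arm and 13 name a 3p arm. The 5p arm is the strand that usually becomes the mature let-7, and the 3p arm is the opposite strand of the same hairpin. No measured value was used in this choice. One row, let-7g-2-3p, had 0 counts in all 27 libraries, which left 22 members with a count.

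let-7 was found in the worm Caenorhabditis elegans, where it times the passage from larval to adult cell fates, and it is conserved across bilaterian animals. The members share a seed and bind the transcripts of growth and cell cycle genes such as RAS, MYC and HMGA2, known mainly from mammals. The RNA-binding protein Lin28 blocks maturation of the let-7 precursor in stem cells and early germ cells, and let-7 usually accumulates as cells differentiate. In this family several hairpins give nearly the same mature strand, so reads can be shared between members, and the source of a read among close members is uncertain.

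Small RNA libraries were made from gonads 10, 30 and 120 days after hatching (stages D10, D30, D120), with 3 libraries in each of 9 groups. Wild-type XX females gave the ovary samples WT_Fe_Ov, and wild-type XY males gave the testis samples WT_Ma_Te. MT_Fe_Ov was the gonad of XY fish in which the Y-linked male-determining gene DMY had been disrupted with TALENs. The sample titles call these DMY knockout males, while the tissue field gives an ovary and the study describes them as females of a line kept over generations. At D10 the gonad primordium was dissected with the tissue around it. The libraries were labelled as biological replicates, but the labels do not say whether a library held 1 fish or a pool. The p-values therefore measure the spread between these libraries.

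Summed miRNA counts ran from 54535 to 8818687 per library, lowest in D30 MT_Fe_Ov with 107271, 54535 and 351194. In that group 3 counts, taken as the limit that a count of 0 allows, equalled 27.97, 55.0 and 8.54 RPM (reads of a miRNA per 1000000 miRNA reads of its library). Such limits cover counting error only. The D10 libraries were rich in miRNAs of other tissues: 42 rows fixed as muscle, skin, neural, gut and erythroid lists held 27.1% to 34.3% of their counts, and all rows of these lists were detected there. At D30 these lists held 0.994% to 6.01% and at D120 5.96% to 13.7%. The gonad miRNA miR-202 (both arms summed) was at only 112 to 473 RPM at D10, against at least 5153 RPM in every D30 library. D30 MT_Fe_Ov replicate 3 stood apart, with 50827 RPM over the 18 neural rows against 93.2 and 385 RPM in replicates 1 and 2, although 9 of the 18 rows were at 0 in all 3. D120 WT_Ma_Te replicate 3 had 22613 RPM over the 6 gut rows against 1291 and 1681 RPM in its replicates. The abundant rows miR-26a-2/3-ba-5p, miR-204-5p and miR-202-5p were listed at 0 in 1, 3 and 6 libraries of a stage while reaching 95949, 163620 and 269609 RPM in other libraries of that stage. A listed 0 in this table therefore need not mean an absent miRNA, and each of these rows also changes the total that RPM is taken over. Their part in the let-7 results was not tested, except where values without them are given.

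RefSeq annotates 9 let-7 hairpin genes on the ASM223467v1 assembly, spread over 4 chromosomes. They form close pairs in most cases. On chromosome 6, let-7a-1 (11379118 to 11379216) lies beside let-7b-1 (11379580 to 11379670). On chromosome 7, let-7e (13454301 to 13454385) lies beside let-7a-2 (13454567 to 13454651), and let-7g (11850443 to 11850536) lies within huwe1, a ubiquitin ligase gene. On chromosome 23, let-7b-2 (6755852 to 6755939) and let-7a-3 (6756775 to 6756869) lie within ppara, which encodes a nuclear receptor for fatty acids. On chromosome 14, let-7c (2503734 to 2503829) lies within 10 kb of mir-99 and mir-125b-2, and let-7a-4 (15411569 to 15411667) within 10 kb of mir-100-2 and mir-125b-1. The names of 6 of these 9 genes begin a row name of the table. The match is by name alone, and the table follows another naming scheme than RefSeq, so a row such as let-7a-3-5p is not shown to come from the gene of that number.

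let-7 was a minor share of miRNA at D10 and a major share at D30, most of all in the ovary. At D10 the 23 rows together held 2.52%, 2.53% and 1.73% of miRNA counts in WT_Fe_Ov. They held 1.42%, 1.95% and 2.46% in WT_Ma_Te, and 2.00%, 2.21% and 2.94% in MT_Fe_Ov, so the 3 groups overlapped. At D30 the share was 35.5%, 28.2% and 34.6% in WT_Fe_Ov, a mean of 32.8% ± 3.95 (SD, n = 3). It was 12.3%, 12.1% and 11.04% in WT_Ma_Te (11.8% ± 0.655) and 29.3%, 17.8% and 35.7% in MT_Fe_Ov (27.6% ± 9.09). Every ovary library of either genotype lay above every testis library at D30, and the XX and XY ovaries overlapped each other. At D120 the share was 17.95%, 13.7% and 9.85% in WT_Fe_Ov, 11.01%, 12.3% and 9.04% in WT_Ma_Te, and 13.6%, 13.7% and 17.4% in MT_Fe_Ov. The XX ovary and the testis overlapped at D120, while the XY ovary lay above the testis. Fewer cells of a type and less let-7 per cell cannot be told apart in these bulk samples.

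The share was 14.5-fold higher at D30 than at D10 in WT_Fe_Ov, 11.6-fold in MT_Fe_Ov and 6.07-fold in WT_Ma_Te, with no overlap between the stages in any genotype. From D30 to D120 it was 0.422 times as high in WT_Fe_Ov and 0.540 times in MT_Fe_Ov, again without overlap. In the testis the D120 to D30 ratio was 0.916 and the stages overlapped (exact two-sided permutation test, p = 0.6). Each comparison of 3 libraries with 3 that did not overlap had an exact permutation p of 0.1, which is the smallest this design allows, and 0.1875 after adjustment over the 15 comparisons. These shares are of listed miRNA counts. The paper reports a larger percentage of reads mapped to miRNAs in every D120 library than in any D30 library. Summed let-7 counts, not divided by sequenced reads, were 148118 to 287468 at D30 and 201956 to 480767 at D120 in WT_Fe_Ov. In MT_Fe_Ov they were 9680 to 125263 and 215398 to 355049. A lower share at D120 thus does not show less let-7 per sequenced read, which was not computed. The tissue lists moved with stage. Over counts outside their 42 rows the let-7 share was 3.31%, 2.77% and 3.37% at D10 (WT_Fe_Ov, WT_Ma_Te and MT_Fe_Ov), 33.2%, 12.3% and 28.8% at D30, and 15.6%, 11.8% and 16.7% at D120. Without the rows listed at 0 in part of a stage, the D30 shares were 36.1%, 16.3% and 33.8% and the D120 shares 20.3%, 12.2% and 16.0%. On these totals the testis stages no longer overlapped, at 14.9% to 17.0% at D30 and 10.2% to 14.0% at D120. At D120 the XX ovary, at 14.4% to 27.1%, no longer overlapped the testis. Its mean was then above that of the XY ovary, which it overlapped. The overlap of the testis stages and that of the XX ovary with the testis at D120 thus depended on these rows. The permutation test was not run without them. Without D30 MT_Fe_Ov replicate 3 the mean of that group was 23.5%.

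**Figure D1:**
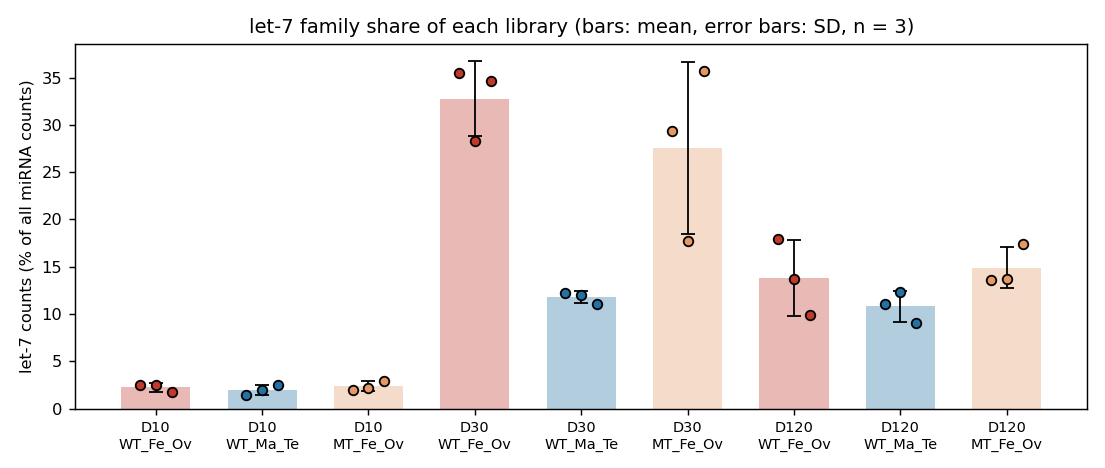
Summed let-7 counts as a percentage of all miRNA counts (vertical axis) in each of the 27 libraries, by stage and genotype, with points for libraries and bars for the group means with their SD. D10 libraries lay between 1.42% and 2.94%, and at D30 each ovary library lay above the highest testis library, at 12.3%.

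A few 5p members made up most of this share. let-7a-3-5p ranked 2 of the 437 miRNAs of the table, with a mean of 62964 RPM over the 27 libraries. let-7g-5p followed with 14573 RPM, let-7b-5p with 11589 RPM, let-7d-5p with 11449 RPM and let-7e-5p with 9180 RPM. The most abundant 3p member, let-7a-5-3p, averaged 1155 RPM and ranked 102, followed by let-7a-3-3p with 256 RPM and let-7b-3p with 117 RPM. The least abundant member with counts, let-7a-6-3p, averaged 3.02 RPM and never passed 13.7 RPM.

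let-7a-3-5p was at 8830, 8544 and 5219 RPM in D10 WT_Fe_Ov, 6713, 5848 and 7685 RPM in WT_Ma_Te and 6191, 7358 and 10226 RPM in MT_Fe_Ov. At D30 it reached 176618, 141265 and 174798 RPM in WT_Fe_Ov, 53860, 48499 and 44405 RPM in WT_Ma_Te and 162942, 80499 and 169288 RPM in MT_Fe_Ov. At D120 it stood at 104468, 68408 and 47372 RPM, 38898, 49351 and 34397 RPM, and 68641, 71073 and 98618 RPM in the same order. The groups overlapped at D10, both ovaries were clear of the testis at D30, and at D120 the lowest XX ovary library lay below the highest testis library.

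let-7b-5p, which often shares a primary transcript with a let-7a hairpin, was at 225 to 909 RPM in all D10 libraries. At D30 it was at 35321, 26242 and 33558 RPM in WT_Fe_Ov, 7329, 5989 and 6405 RPM in WT_Ma_Te and 11988, 21472 and 9006 RPM in MT_Fe_Ov. At D120 it was at 21716, 21571 and 16162 RPM, 8456, 8405 and 7844 RPM, and 21643, 23584 and 20554 RPM. Neither ovary overlapped the testis at D30 or D120.

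let-7d-5p ranked 2 among the 5p members in all D10 groups, behind let-7a-3-5p, and ranged from 1683 to 7902 RPM there. The value of 1683 RPM was D10 WT_Ma_Te replicate 1, against 6029 and 6704 RPM in its replicates. At D30 it was at 35992, 33697 and 48715 RPM in WT_Fe_Ov, 6276, 5020 and 5292 RPM in WT_Ma_Te and 20891, 16485 and 15430 RPM in MT_Fe_Ov. In the testis its D30 level was thus within the D10 range, while both ovaries lay above it. Its D120 levels were 8139, 8632 and 6465 RPM, 6256, 6295 and 5818 RPM, and 8472, 8436 and 8711 RPM.

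let-7e-5p showed the reverse, with a D30 level that the testis shared. It was at 209 to 369 RPM at D10, and at D30 at 20069, 15740 and 16764 RPM in WT_Fe_Ov, 19232, 19660 and 16333 RPM in WT_Ma_Te and 17619, 10287 and 36863 RPM in MT_Fe_Ov. By D120 it stood at 12019, 8943 and 6611 RPM, 5722, 6715 and 3950 RPM, and 9547, 8306 and 11051 RPM. The highest D30 value belonged to MT_Fe_Ov replicate 3, the library with the high neural rows.

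let-7g-5p was at 2375 to 4424 RPM at D10. At D30 it was at 34628, 24558 and 25202 RPM in WT_Fe_Ov, 16138, 20046 and 16425 RPM in WT_Ma_Te and 33523, 15861 and 66610 RPM in MT_Fe_Ov, where replicate 3 was again the highest. The D120 values were 15068, 9899 and 6766 RPM, 15952, 18661 and 12160 RPM, and 9532, 8979 and 14086 RPM. By D120 the testis values of let-7g-5p overlapped those of both ovaries.

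The 3p members were scarce at D10 and moved apart at D30. let-7a-5-3p was at 9.56 to 14.8 RPM at D10, and at D30 at 6310, 7499 and 8055 RPM in WT_Fe_Ov, 845, 1137 and 857 RPM in WT_Ma_Te and 1203, 1614 and 940 RPM in MT_Fe_Ov. At D120 it was back at 350, 324 and 287 RPM, 276, 272 and 154 RPM, and 356, 271 and 334 RPM. The XX ovary at D30 was thus clear of both other groups, and no 5p row carries the matching number.

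let-7a-3-3p, the opposite strand named with the most abundant member, was at 88.1 to 174 RPM at D10. At D30 it was at 228, 515 and 291 RPM in WT_Fe_Ov, 349, 296 and 313 RPM in WT_Ma_Te, and 27.97, 0 and 51.3 RPM in MT_Fe_Ov. Its levels at D120 were 369, 498.9 and 568 RPM, 341, 373 and 227 RPM, and 506, 472 and 416 RPM. The D30 XY ovary lay below all libraries of the other groups, although let-7a-3-5p, the strand named with let-7a-3-3p, overlapped the XX ovary there. At D10 and D120 the XY ovary lay above the testis and overlapped the XX ovary.

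let-7b-3p was at 7.46 to 18.8 RPM at D10. At D30 it was at 511, 866 and 918 RPM in WT_Fe_Ov, 88.1, 49.0 and 69.2 RPM in WT_Ma_Te, and 9.32, 18.3 and 28.5 RPM in MT_Fe_Ov. In the D120 libraries it was at 30.0, 60.5 and 56.6 RPM, 59.8, 41.7 and 36.6 RPM, and 102, 51.8 and 53.2 RPM. As listed, the 3 groups did not overlap at D30, with the XX ovary highest and the XY ovary lowest. The XY ovary values rest on 12 counts, and 3 counts equalled up to 55.0 RPM there, above the lowest testis value. Its log2 difference from the testis was -1.27 and not called in the main test given below. Scaled by library totals it was -1.73 and called lower.

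**Figure D2:**
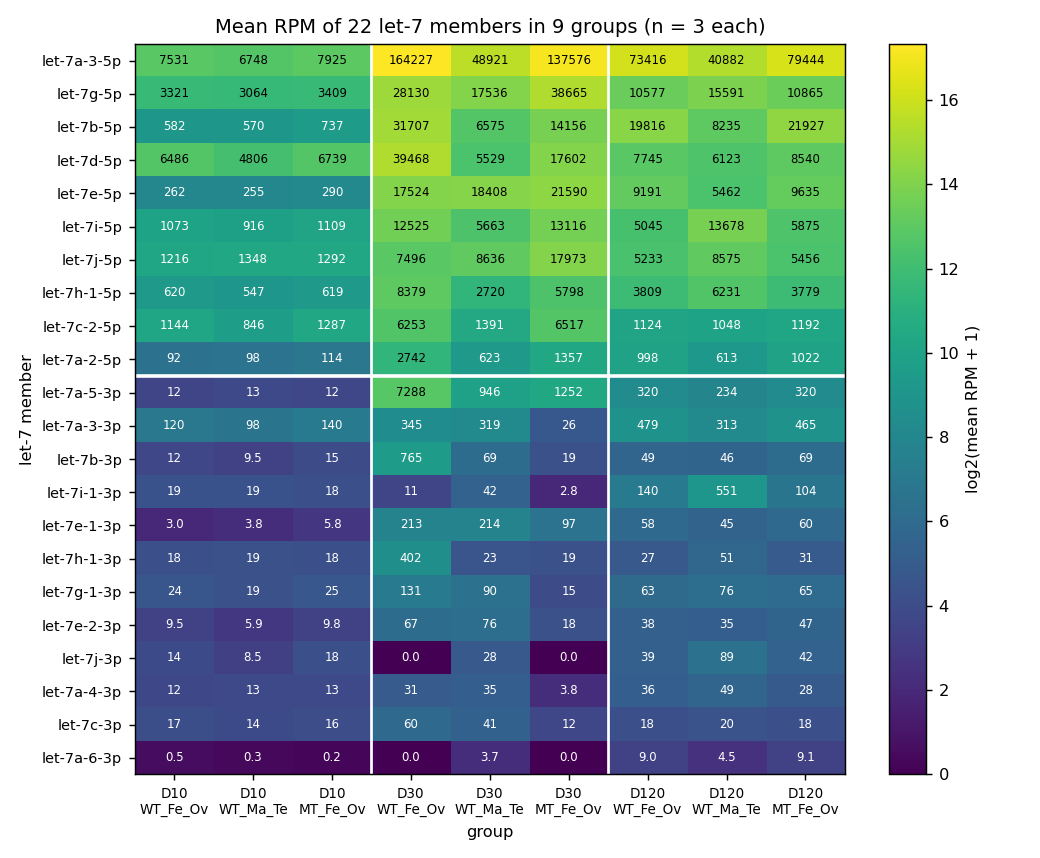
Mean RPM over 3 libraries of the 22 let-7 members with a count (rows) in the 9 groups (columns), shown as colour by log2(mean RPM + 1). let-7a-3-5p is the highest row in all 9 groups, and several 3p members have their darkest or lightest cells at D30.

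The remaining 5p members had lower means over the 27 libraries than the 5p members above, but not in every group. In the D120 testis let-7i-5p and let-7j-5p averaged 13678 and 8575 RPM, above let-7b-5p at 8235 RPM. Over all 27 libraries, let-7i-5p ranged from 548 to 15763 RPM, let-7j-5p from 1023 to 27896 RPM and let-7h-1-5p from 365 to 10238 RPM. let-7c-2-5p ranged from 514 to 11128 RPM, and let-7a-2-5p from 71.1 to 3027 RPM. The highest values of let-7j-5p and let-7c-2-5p both came from D30 MT_Fe_Ov replicate 3. let-7a-2-5p followed let-7a-3-5p closely at 0.629% to 1.85% of its count, median 1.35% over 27 libraries.

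The make-up of the 5p arm also changed with stage, and these within-family percentages do not depend on how libraries are scaled. let-7a-3-5p held 33.4%, 36.7% and 33.5% of let-7 5p counts at D10 (WT_Fe_Ov, WT_Ma_Te and MT_Fe_Ov). It held 51.6%, 42.1% and 49.7% at D30 and 52.6%, 38.3% and 53.5% at D120. It was the leading member in 26 of the 27 libraries, and let-7d-5p led in D10 WT_Ma_Te replicate 2.

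let-7d-5p ranked next at D10 with 28.9%, 23.6% and 28.8%. It fell to 12.4%, 4.77% and 6.96% at D30 and to 5.87%, 5.82% and 5.85% at D120. The D10 testis value had a wide spread, with 12.1%, 31.3% and 27.5% in its libraries. At D120 the 3 genotypes were close in this member.

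let-7e-5p was 1.19%, 1.38% and 1.23% of 5p counts at D10, and at D30 it held 5.52% ± 0.457 in WT_Fe_Ov, 15.8% ± 0.780 in WT_Ma_Te and 7.42% ± 2.56 in MT_Fe_Ov. It ranked 2 among the 5p members in the D30 testis and 5 in the D30 XX ovary. D120 libraries held 6.72%, 5.07% and 6.53%.

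The D120 testis had its own order of 5p members. let-7g-5p held 14.6% ± 0.888 of 5p counts there, against 7.58% ± 0.772 in WT_Fe_Ov and 7.28% ± 0.807 in MT_Fe_Ov. let-7i-5p held 12.9% ± 0.699 there, against 3.89% ± 1.02 and 3.96% ± 0.193. let-7j-5p held 8.05% ± 0.625, against 3.96% ± 0.803 and 3.73% ± 0.438, and let-7h-1-5p 5.92% ± 0.728, against 2.89% ± 0.617 and 2.57% ± 0.195. In turn let-7b-5p held 7.83% ± 0.932 in the testis and 14.9% ± 2.41 and 15.1% ± 2.83 in the ovaries. The testis did not overlap the ovaries in any of these 5 percentages. The 5 were picked from the 10 5p members after the values were seen, and let-7d-5p was close in the 3 genotypes.

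**Figure D3:**
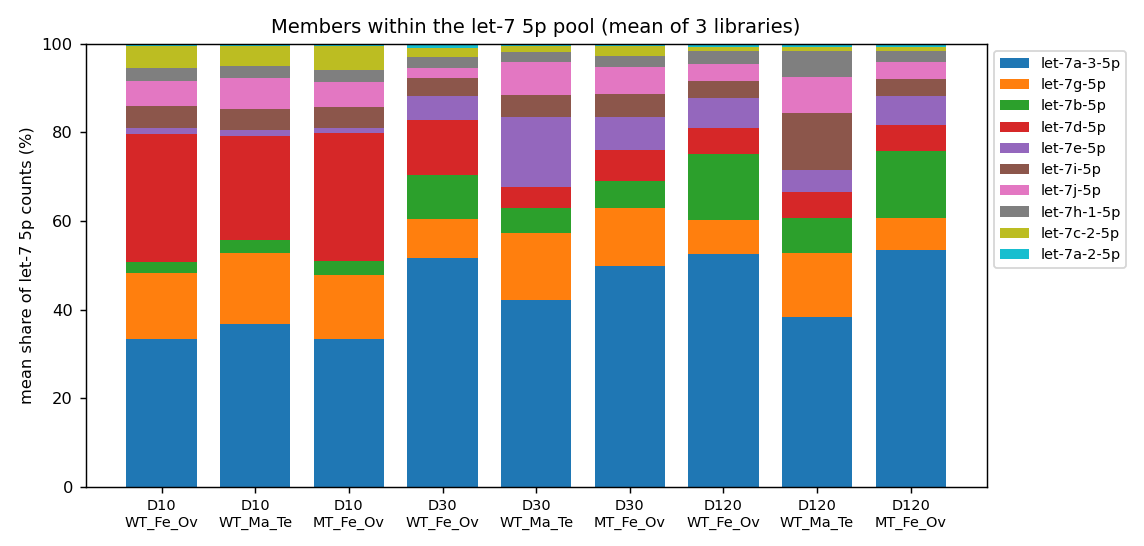
Stacked bars of the mean percentage of let-7 5p counts (vertical axis) held by each of the 10 5p members in the 9 groups (horizontal axis). let-7d-5p shrinks from 28.9% at D10 to 5.87% at D120 in WT_Fe_Ov, and let-7i-5p takes 12.9% in the D120 testis.

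Differential expression was tested with edgeR's quasi-likelihood F test over all miRNAs that reached 10 counts in 3 or more libraries of the fit. The term differentially expressed miRNA (DEM) stands for an adjusted p no higher than 0.05 with a log2 fold change of 1 or more in either direction. At D10 the question was whether genotypes already differed. Of the 21 let-7 members tested, 0 were DEMs in any of the 3 genotype contrasts, and 0 reached an unadjusted p under 0.05. DESeq2 also called 0. Of all 388 miRNAs tested, 0% were called higher and 0% lower in each contrast. The median let-7 log2 fold change was 0.04 for WT_Fe_Ov against WT_Ma_Te (all miRNAs -0.04), 0.08 for MT_Fe_Ov against WT_Ma_Te (all -0.02) and 0.00 for MT_Fe_Ov against WT_Fe_Ov (all 0.03). For let-7a-3-5p the differences were 0.04 (SE 0.27) and 0.03 on the log2 scale for WT_Fe_Ov and MT_Fe_Ov against the testis. These samples also held other tissue, and its part in the lack of calls was not tested.

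At D30 let-7 was higher in the XX ovary than in the testis. Of the 20 members tested, 10 were DEMs higher in WT_Fe_Ov (16.4% of all 250 miRNAs tested were called higher) and 0 were lower (30.4% of all were called lower). The members called were 7 of the 10 5p and 3 of the 3p arms. The 0 lower depended on the filter and fit. With a minimum of 1 count in total, 10 were higher and 2 lower, and with all 27 libraries in 1 fit 10 and 3. let-7j-3p, not among the 20 tested, was at 0 in all WT_Fe_Ov libraries and at 26.4 to 28.6 RPM in WT_Ma_Te. The median log2 fold change of the 20 members was 0.98, and that of all 250 miRNAs was -0.65. The named 5p members were let-7d-5p (log2 fold change 2.93, SE 0.31, adjusted p = 0.00012), let-7b-5p (2.35, SE 0.28, adjusted p = 0.000194) and let-7a-3-5p (1.82, SE 0.39, adjusted p = 0.00381). The largest differences were in 3p arms, with let-7h-1-3p at 4.21 (SE 1.08, adjusted p = 0.00963), let-7b-3p at 3.57 (SE 0.58, adjusted p = 0.000932) and let-7a-5-3p at 3.03 (SE 0.28, adjusted p = 7.42e-05). Libraries did not overlap in any of these 6. For let-7h-1-3p the lack of overlap was part of how it was picked, and its share over all 250 miRNAs is not given here. let-7h-1-3p was at 356, 498 and 353 RPM in WT_Fe_Ov and 20.6, 12.2 and 36.2 RPM in WT_Ma_Te. Without D30 WT_Ma_Te replicate 2 its adjusted p was 0.0539. let-7e-5p was at -0.01 (SE 0.49, adjusted p = 0.999), let-7g-5p at 0.74 (SE 0.52, adjusted p = 0.291) and let-7j-5p at -0.12 (SE 0.45, adjusted p = 0.866). The other DEMs, let-7c-2-5p, let-7a-2-5p, let-7h-1-5p and let-7i-5p, were higher by 1.21 to 2.23.

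The XY ovary, compared with the same testis libraries, was higher mainly in 5p arms. Of the 20 members, 9 were DEMs higher in MT_Fe_Ov (13.6% of all were called higher), all of them 5p arms, and 1 was lower, let-7a-3-3p (18% of all were called lower). The median over the members was 0.73, against -0.29 over all miRNAs. let-7c-2-5p was higher by 2.70 in log2 units (SE 0.49, adjusted p = 0.00363), let-7d-5p by 2.04 (SE 0.30, adjusted p = 0.00125), let-7a-3-5p by 1.92 (SE 0.39, adjusted p = 0.00508) and let-7b-5p by 1.40 (SE 0.27, adjusted p = 0.00416). These 4 did not overlap the testis, which for let-7c-2-5p was part of how it was picked. let-7a-3-3p was at -2.82 (SE 0.78, adjusted p = 0.0215), and this call was lost without any of the 3 testis libraries or without MT_Fe_Ov replicate 1, with adjusted p from 0.0541 to 0.0614. let-7g-5p was at 1.63 (adjusted p = 0.0429) and let-7j-5p at 1.53 (adjusted p = 0.0299), and each was lost in 5 of the 6 fits that left out 1 library, with adjusted p from 0.0613 to 0.134 and from 0.0541 to 0.0863. Without MT_Fe_Ov replicate 3 they were at 0.78 and 0.87. The count of 10 fell to 5 without WT_Ma_Te replicate 1 and to 6 without WT_Ma_Te replicate 3 or MT_Fe_Ov replicate 1. With the replicate number as a block it was 7, all higher. With all 27 libraries in 1 fit, 9 members were higher and 5 lower.

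The XY and XX ovaries were then compared directly at D30. The main 5p member did not differ by the test: let-7a-3-5p was at 0.10 (SE 0.38, adjusted p = 0.896), and its sign turned under scaling by library totals, at -0.25. Of the 20 members, 1 was a DEM higher in MT_Fe_Ov (18.8% of all were called higher), let-7j-5p, and 4 were lower (9.6% of all were called lower), each a 3p arm. The 4 were let-7b-3p (-4.84, SE 0.65, adjusted p = 0.000615), let-7h-1-3p (-3.49, SE 1.07, adjusted p = 0.0343), let-7a-3-3p (-3.002, SE 0.78, adjusted p = 0.0162) and let-7a-5-3p (-2.30, SE 0.28, adjusted p = 0.000361). None of the 4 overlapped between the ovaries. The median over the members was -0.87, and -0.79 with the member at the counting limit set to its bound, against 0.17 over all miRNAs. let-7h-1-3p was at 0, 0 and 56.9 RPM in MT_Fe_Ov, and its call was lost without any 1 of the XX libraries (adjusted p from 0.0526 to 0.0783). let-7j-5p was at 16855, 9168 and 27896 RPM in MT_Fe_Ov and 7879, 6494 and 8115 RPM in WT_Fe_Ov, a log2 difference of 1.65 (SE 0.46, adjusted p = 0.0234). Without MT_Fe_Ov replicate 3 it was at 0.98 and not called, and it was also not called without any 1 of the XX libraries. let-7b-5p (-0.95, adjusted p = 0.0249) and let-7d-5p (-0.89, adjusted p = 0.0426), both abundant 5p arms, also did not overlap between the ovaries but fell short of the fold minimum. Scaled by library totals, 1 member was higher and 7 were lower in this contrast, and the 7 included let-7b-5p (-1.16, adjusted p = 0.0222) and let-7d-5p (-1.16, adjusted p = 0.00625). Leaving out 1 library gave 3 to 7 members, with 3 without WT_Fe_Ov replicate 3. Without MT_Fe_Ov replicate 3, the library with the high neural rows, 0 members were higher and 6 lower.

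At D120 fewer let-7 members than at D30 were DEMs between ovary and testis, and the split depended on the scaling. With TMM scaling, 6 of the 22 members tested were higher in WT_Fe_Ov than in WT_Ma_Te (21.2% of all 344 miRNAs were called higher) and 0 were lower (16.9% of all were called lower). The median was 0.67 over the members and 0.04 over all miRNAs. In MT_Fe_Ov 6 were higher (18.9% of all) and 1 was lower (17.2% of all), with medians of 0.81 and -0.01. Whether these counts differ from the shares over all miRNAs was not tested. An unadjusted edgeR p under 0.05 was reached by 13 of 22 members in the XX contrast, against 10 of 20 at D30. In the XY contrast it was 14 against 11, so the smaller number at D120 held for DEMs only. Scaled by library totals, 1 member was higher, let-7b-5p, and 3 were lower, let-7i-5p, let-7i-1-3p and let-7j-3p, in each of these contrasts. Library totals moved the median of all 344 miRNAs by -0.57 in the XX contrast and -0.51 in the XY contrast.

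let-7b-5p was called higher in both ovaries under each scaling. It was higher by 1.86 (SE 0.21, adjusted p = 8.65e-05) in WT_Fe_Ov and by 1.93 (SE 0.21, adjusted p = 9.12e-05) in MT_Fe_Ov, and by 1.27 and 1.41 with library totals. let-7a-3-5p was at 1.45 (SE 0.35, adjusted p = 0.00761) and 1.47 (SE 0.35, adjusted p = 0.00793), and with library totals it was at 0.84 and 0.96 and not called. let-7e-5p (1.35 and 1.33), let-7a-2-5p (1.31 and 1.25) and let-7a-3-3p (1.16 and 1.07) were DEMs in both contrasts under TMM and in neither under library totals. Without D120 WT_Ma_Te replicate 3, let-7a-3-3p was at 0.93 and 0.84 and not called. let-7a-5-3p was called in WT_Fe_Ov alone (1.04, adjusted p = 0.0164) and stood at 0.96 in MT_Fe_Ov (adjusted p = 0.0243), short of the fold minimum. Without D120 WT_Fe_Ov replicate 1, the library with the highest let-7a-3-5p, the XX count fell from 6 to 2. Then let-7a-3-5p was at 0.99, let-7e-5p at 0.99, let-7a-2-5p at 0.90 and let-7a-5-3p at 0.86.

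let-7i-5p pointed the other way. It was at 14718, 14987 and 11328 RPM in D120 WT_Ma_Te, 5061, 5337 and 4737 RPM in WT_Fe_Ov and 5294, 5150 and 7180 RPM in MT_Fe_Ov, with no overlap. Its TMM log2 fold changes were -0.86 (SE 0.22, adjusted p = 0.0107) and -0.70 (SE 0.22, adjusted p = 0.0265), short of the fold minimum, and with library totals it was called at -1.44 and -1.22. let-7i-1-3p was lower in MT_Fe_Ov by -1.87 (SE 0.63, adjusted p = 0.033), with 68.2, 102 and 141 RPM against 1140, 354 and 159 RPM in the testis. It was lost in 4 of the 6 fits that left out 1 library (adjusted p from 0.0524 to 0.192). Without the testis library at 1140 RPM, replicate 1, it was at -0.88, and 4 members were called in the XY contrast instead of 7. let-7b-3p was called in MT_Fe_Ov at 1.10 (adjusted p = 0.0323), and this call was lost when any 1 of the testis libraries or MT_Fe_Ov replicate 1 was left out. The signs of let-7g-5p in the XX contrast (0.05 under TMM, -0.56 under library totals), let-7a-4-3p in the XX contrast (0.11 and -0.44) and let-7g-1-3p in both (0.30 and 0.28 under TMM, -0.28 and -0.24 under library totals) turned with the scaling.

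No let-7 member separated the XX and XY ovaries at D120. Of the 22 members, 0 were DEMs between MT_Fe_Ov and WT_Fe_Ov by edgeR, 0 by DESeq2, and 0 reached an unadjusted p under 0.05. Of all 344 miRNAs, 0.291% were called higher and 0.291% lower. The log2 fold changes ran from -0.46 (let-7i-1-3p) to 0.45 (let-7b-3p), with a median of -0.02 against -0.01 over all miRNAs. For let-7a-3-5p the difference was 0.01 (SE 0.34) and for let-7b-5p 0.07 (SE 0.20). A p that misses the threshold does not show that levels are equal.

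**Figure D4:**
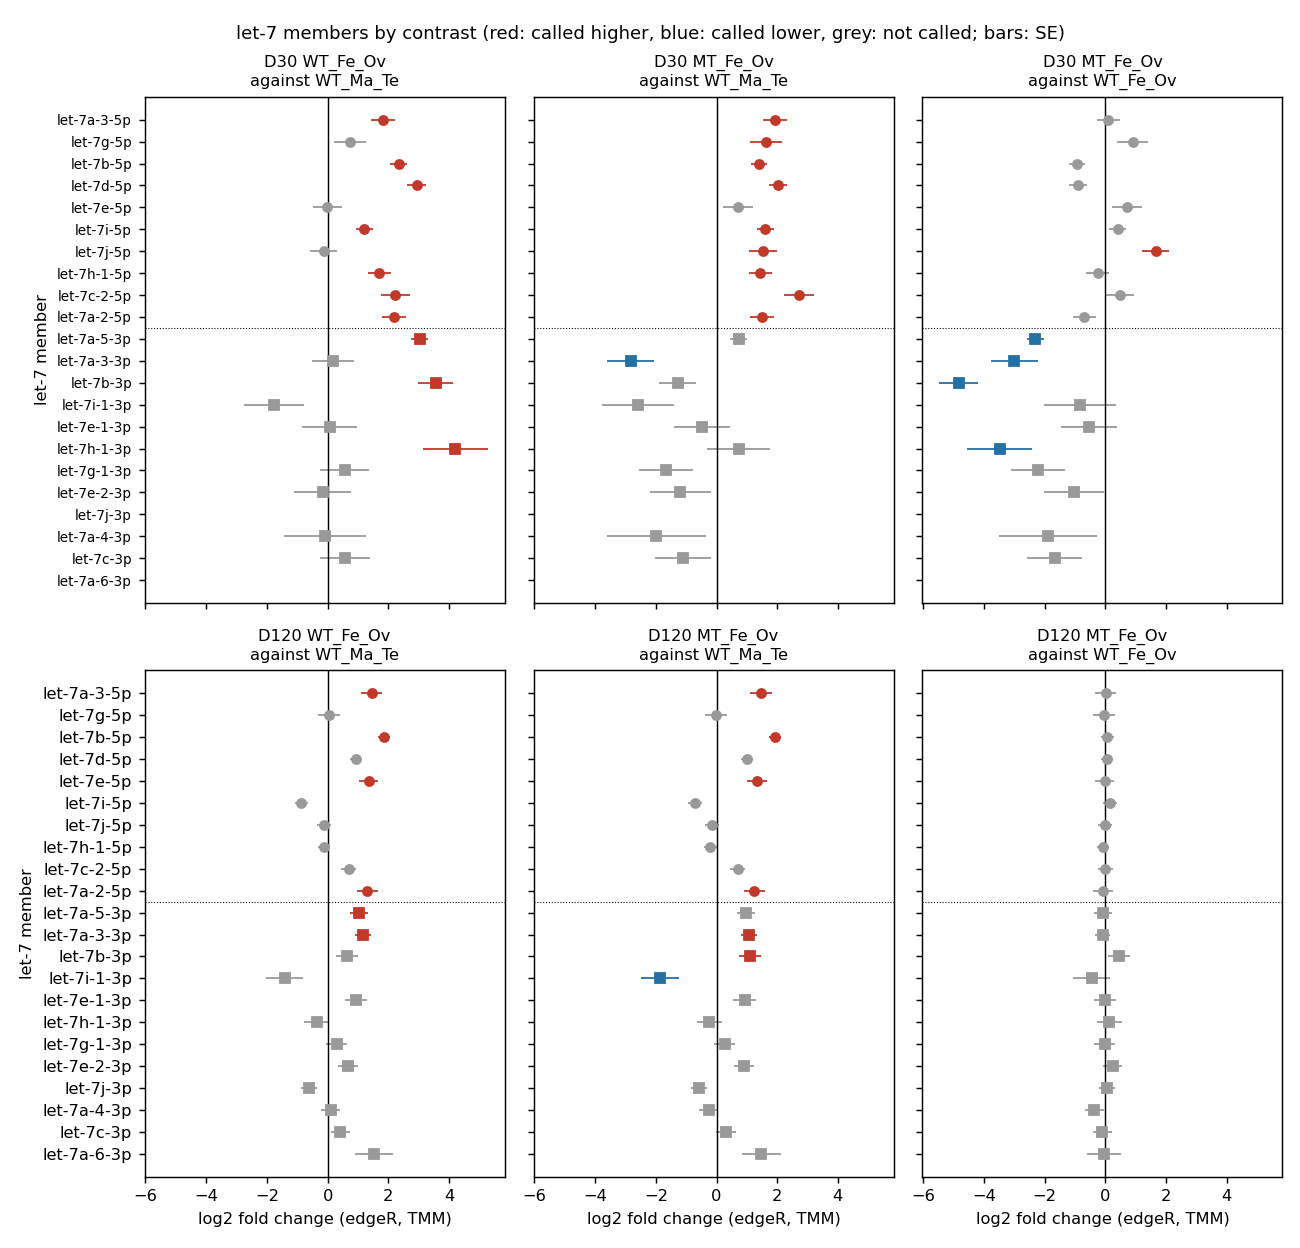
Log2 fold changes with standard errors (horizontal axis) of the let-7 members tested in the 3 genotype contrasts at D30 and D120 (6 panels), from edgeR with TMM scaling. DEMs are red where higher and blue where lower, and other members are grey. At D30 the 3p members let-7b-3p, let-7h-1-3p, let-7a-3-3p and let-7a-5-3p lie on the negative side of the MT_Fe_Ov against WT_Fe_Ov panel, and at D120 that panel spans -0.46 to 0.45.

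Whether these genotype differences changed from D30 to D120 was tested as an interaction over all 27 libraries. For WT_Fe_Ov against WT_Ma_Te, 2 of 22 members had a more positive difference at D120 than at D30 (31.3% of all 399 miRNAs were called this way) and 7 a more negative one (13.5% of all). The medians were -0.65 over the members and 0.93 over all. The 7 included let-7h-1-3p (-4.97, SE 0.83, adjusted p = 3.13e-05), let-7b-3p (-3.27, SE 0.54, adjusted p = 3.01e-05) and let-7i-5p (-2.41, SE 0.46, adjusted p = 0.000158). let-7i-5p thus went from a positive ovary difference at D30 to a negative one at D120, while let-7a-3-5p had an interaction of -0.67 (SE 0.56, adjusted p = 0.362). For MT_Fe_Ov against WT_Ma_Te 3 members were called higher (21.6% of all) and 5 lower (13.3% of all), with medians of 0.46 and 0.62. Without D30 MT_Fe_Ov replicate 3 the balance turned, with 6 higher and 2 lower. The 5 were all 5p arms, let-7i-5p (-2.41), let-7c-2-5p (-2.14), let-7j-5p (-1.81), let-7g-5p (-1.76) and let-7h-1-5p (-1.76). Of these, let-7c-2-5p (-1.20), let-7j-5p (-1.11) and let-7g-5p (-0.86) were not called without that library, and let-7g-5p was lost in 8 of the 12 fits that left out 1 library (adjusted p from 0.0562 to 0.316). let-7a-3-3p was called in opposite directions at the 2 stages, -2.82 at D30 and 1.07 at D120, and had an interaction of 3.65 (SE 0.63, adjusted p = 8.05e-05). The D30 call was lost in 4 of 6 fits that left out 1 library, and the D120 value was 0.84 and not called without D120 WT_Ma_Te replicate 3.

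For MT_Fe_Ov against WT_Fe_Ov the interaction was called higher in 5 members (7.52% of all) and lower in 1 (14% of all), with medians of 0.73 and -0.05. The 5 were 3p arms. let-7b-3p changed by 5.41 (SE 0.61, adjusted p = 5.14e-07), let-7h-1-3p by 3.63 (SE 0.84, adjusted p = 0.00232) and let-7a-3-3p by 3.03 (SE 0.62, adjusted p = 0.000828). let-7a-5-3p changed by 2.46 (SE 0.43, adjusted p = 0.000197) and let-7g-1-3p by 2.29 (SE 0.72, adjusted p = 0.0249). The 3p deficit of the XY ovary against the XX ovary was thus measured at D30 and not at D120. let-7j-5p changed by -1.48 (adjusted p = 0.0495), and by -0.78 without D30 MT_Fe_Ov replicate 3. Its call was lost in 9 of the 12 fits that left out 1 library (adjusted p from 0.0515 to 0.32) and with the replicate number as a block (adjusted p = 0.0659), and that of let-7g-1-3p in 4 of the 12 (adjusted p from 0.0504 to 0.0701).

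From D10 to D30 let-7 rose relative to the listed miRNA counts in all 3 genotypes, while most other miRNAs did not. The paper reports a smaller percentage of reads mapped to miRNAs in every D30 library than in any D10 library. Summed let-7 counts, not divided by sequenced reads, overlapped between the stages in every genotype. They were 83615 to 186915 at D10 and 148118 to 287468 at D30 in WT_Fe_Ov. The same counts were 35966 to 216016 and 33514 to 65451 in WT_Ma_Te, and 117698 to 259097 and 9680 to 125263 in MT_Fe_Ov. The rise is thus shown only relative to the listed counts, and let-7 per sequenced read was not computed. In WT_Fe_Ov 18 of 22 members were DEMs higher at D30 (17.3% of all 399 miRNAs) and 1 was lower (57.4% of all), and the medians were 2.98 over the members and -3.34 over all. All 10 of the 5p members rose. let-7a-5-3p rose by 9.35 in log2 units (SE 0.42, adjusted p = 1.23e-14), let-7e-1-3p by 6.19 (SE 0.74, adjusted p = 1.3e-07), let-7e-5p by 6.10 (SE 0.53, adjusted p = 1.17e-09) and let-7a-3-5p by 4.48 (SE 0.45, adjusted p = 1.06e-08). let-7j-3p was listed at 0 in all 3 D30 libraries and at 10.7 to 16.7 RPM at D10, so it was at least 2.85-fold lower at D30 when 3 counts are taken as the limit of each library. The D10 samples held neighbouring tissue, so the stage contrasts compare unlike tissue mixtures, and stage and mixture cannot be told apart.

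In WT_Ma_Te 17 members were higher at D30 (24.8% of all) and 0 were lower (35.8% of all). No member had an unadjusted p under 0.05 and a lower level, and DESeq2 called 17 higher and 0 lower. The medians were 2.37 over the members, or 2.21 with the member at the counting limit set to its bound, and -0.36 over all. let-7e-5p rose by 5.99 (SE 0.53, adjusted p = 2.65e-09), let-7a-5-3p by 5.97 (SE 0.37, adjusted p = 9.79e-12), let-7e-1-3p by 5.69 (SE 0.73, adjusted p = 9.67e-07) and let-7a-3-5p by 2.67 (SE 0.42, adjusted p = 1.13e-05). let-7d-5p was at -0.03 (SE 0.38, adjusted p = 0.959) and let-7c-2-5p at 0.51 (SE 0.43, adjusted p = 0.317), the 5p members not called in the testis. let-7j-3p, listed at 0 in both D30 ovaries, rose here by 1.47 (SE 0.41, adjusted p = 0.00434). The call of let-7a-6-3p rests on 5 counts, 1 or 2 per D30 library (3.29 to 4.08 RPM), below the limit of 3 counts, which was 5.62 to 9.88 RPM there. It was at most 0.569 RPM at D10, and it was lost when any 1 of 5 of the 6 libraries was left out.

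In MT_Fe_Ov 13 members were higher at D30 (15.5% of all) and 2 were lower (39.8% of all), with medians of 2.25 and -2.07. let-7a-5-3p rose by 6.86 (SE 0.38, adjusted p = 1.13e-12), let-7e-5p by 6.59 (SE 0.54, adjusted p = 6.36e-10) and let-7a-3-5p by 4.43 (SE 0.45, adjusted p = 1.9e-08). All 10 of the 5p members rose, as in the XX ovary. The lower members were let-7a-3-3p, at -1.67 (SE 0.47, adjusted p = 0.00431), and let-7j-3p, listed at 0 in all 3 D30 libraries. At 11.8 to 21.999 RPM in D10, let-7j-3p lay under the counting limit of the shallow D30 libraries, so no fold is given. let-7e-1-3p was called at 4.69 and let-7e-2-3p at 1.80, and without D30 MT_Fe_Ov replicate 3 they were at 1.76 and -0.61 and not called.

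From D30 to D120 the let-7 members that changed were mostly lower in the XX ovary, relative to the listed miRNA counts. In WT_Fe_Ov 3 members were higher (46.9% of all miRNAs) and 10 lower (18.5% of all), with medians of -0.98 and 2.02. The 10 included let-7a-5-3p (-4.37, SE 0.34, adjusted p = 1.92e-10), let-7b-3p (-3.90, SE 0.41, adjusted p = 1.96e-08) and let-7h-1-3p (-3.81, SE 0.59, adjusted p = 6e-06), and the 5p members let-7c-2-5p, let-7d-5p, let-7a-2-5p, let-7g-5p and let-7i-5p. The call of let-7g-5p was lost in 3 of the 6 fits that left out 1 library (adjusted p from 0.0699 to 0.0935). let-7a-3-5p was at -0.97 (SE 0.40, adjusted p = 0.0346), short of the fold minimum. The higher members were let-7i-1-3p (3.72, SE 0.69, adjusted p = 5.68e-05), let-7j-3p, at least 8.11-fold higher, and let-7a-6-3p, at least 1.89-fold higher, the latter 2 from D30 libraries listed at 0.

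In WT_Ma_Te 4 members were higher (30.8% of all) and 3 lower (12.8% of all), with medians of -0.06 and 0.78. The higher members were let-7i-1-3p (3.66, SE 0.65, adjusted p = 8.61e-05), let-7j-3p (1.63, SE 0.40, adjusted p = 0.00292), let-7i-5p (1.23, SE 0.33, adjusted p = 0.00378) and let-7h-1-5p (1.15, SE 0.34, adjusted p = 0.00718). Without D120 WT_Ma_Te replicate 1, let-7i-5p was at 0.93 and let-7h-1-5p at 0.83, and neither was called. The lower members were let-7e-1-3p (-2.29), let-7a-5-3p (-2.06) and let-7e-5p (-1.79, SE 0.44, adjusted p = 0.002). let-7a-3-5p was at -0.30 (SE 0.39, adjusted p = 0.561).

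In MT_Fe_Ov 5 members were higher (35.3% of all) and 7 lower (17.8% of all), with medians of -0.31 and 1.44. The higher members were all 3p arms: let-7a-3-3p (3.59, SE 0.49, adjusted p = 1.62e-06), let-7b-3p (1.52, SE 0.47, adjusted p = 0.00829), let-7g-1-3p (1.37, adjusted p = 0.0414), let-7i-1-3p, at least 3.40-fold higher, and let-7j-3p, at least 1.37-fold higher. The call of let-7g-1-3p was lost in 3 of the 6 fits that left out 1 library (adjusted p from 0.121 to 0.15). Of the 7 lower members, 6 were 5p arms, led by let-7c-2-5p (-2.59, SE 0.45, adjusted p = 3.76e-05). let-7g-5p was at -1.97 (adjusted p = 0.00156) and let-7e-5p at -1.31 (adjusted p = 0.0127). Without D30 MT_Fe_Ov replicate 3, let-7g-5p was at -1.07 and let-7e-5p at -0.42, and neither was called. The count was then 8 higher and 3 lower, so the balance of directions in the XY ovary turned without this library, the one with the high neural rows. let-7a-3-5p was at -0.87 (SE 0.40, adjusted p = 0.0681).

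The balance of arms was described as the 3p percentage of both arms, for 9 pairs of a 3p row and a 5p row. This percentage is taken within a library and does not depend on the scaling. The names match in full for let-7a-3, let-7b, let-7h-1 and let-7j. Of the rest, let-7c-3p was set against let-7c-2-5p, let-7g-1-3p against let-7g-5p and let-7i-1-3p against let-7i-5p. Both let-7e-1-3p and let-7e-2-3p were set against let-7e-5p. A 5p row can hold reads of several hairpins. The percentage therefore does not show the arm balance of a given hairpin. For let-7a-3 the percentage was 1.197% to 2.26% in all D10 libraries. At D30 it was 0.129%, 0.363% and 0.166% in WT_Fe_Ov, 0.643%, 0.606% and 0.700% in WT_Ma_Te and 0.0172%, 0% and 0.0303% in MT_Fe_Ov, and at D120 it was 0.352% to 1.18% in all libraries. The 3 genotypes were thus separate at D30, where the XY ovary was lowest. At D10 the XY ovary was above the testis, at 1.65% to 1.96% against 1.24% to 1.62%, and overlapped the XX ovary, and at D120 the groups overlapped.

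For let-7b the D30 values were 1.43%, 3.19% and 2.66% in WT_Fe_Ov, 1.19%, 0.811% and 1.07% in WT_Ma_Te and 0.0777%, 0.0853% and 0.315% in MT_Fe_Ov. For let-7h-1 they were 3.36%, 7.74% and 3.79%, 0.734%, 0.480% and 1.26%, and 0%, 0% and 1.67%. In these pairs the XX ovary was higher than the testis, the reverse of let-7a-3. For let-7i-1 the XX ovary was below the testis, at 0.0157%, 0.164% and 0.128% against 1.15%, 0.562% and 0.583%. let-7j-3p was 0 of 14802 reads of both arms in D30 WT_Fe_Ov, which allows up to 0.0203%, and 0 of 12105 in D30 MT_Fe_Ov, which allows up to 0.0248%, against 0.295% to 0.336% in D30 WT_Ma_Te.

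Counted over pairs with at least 100 reads per library, the 3p percentage was lower in all D30 MT_Fe_Ov libraries than in all D30 WT_Fe_Ov libraries for 7 of the 9 let-7 pairs and higher for 0. With each library at 0 set to the limit of 3 counts, 4 of these pairs stayed separate, let-7a-3, let-7b, let-7e-1 and let-7h-1. For let-7c, let-7e-2 and let-7g-1 the 0 of MT_Fe_Ov replicate 2 allows up to 1.34%, 0.535% and 0.347%, above the lowest XX values of 0.517%, 0.135% and 0.269%. Other miRNAs were paired only where the names match in full, unlike some let-7 pairs, and 26 of 127 such pairs had enough reads here. For these the minor arm was taken, and its percentage was lower for 0 of 26 pairs and higher for 4, at that limit too. Against WT_Ma_Te at D30 the XY ovary was lower for 8 of the 9 let-7 pairs and for 9 of 27 other pairs, or 6 and 5 at the limit. At D120 the XY ovary was lower than the XX ovary for 0 of the 9 let-7 pairs and for 2 of 91 other pairs. At D10 it was 0 of 9 and 4 of 114. The let-7 pairs are not independent, since let-7e-1 and let-7e-2 are set against the same 5p row, and the difference from other pairs was not tested. Together the 3p arms were 2.89% ± 0.639 of let-7 counts in D30 WT_Fe_Ov, 1.60% ± 0.121 in WT_Ma_Te and 0.594% ± 0.300 in MT_Fe_Ov. Much of this sum was let-7a-5-3p, which is in none of the 9 pairs. It held 14021 of 17866 3p counts in WT_Fe_Ov, 1268 of 2517 in WT_Ma_Te and 547 of 735 in MT_Fe_Ov. The summed percentage therefore does not give the balance of the 9 pairs.

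**Figure D5:**
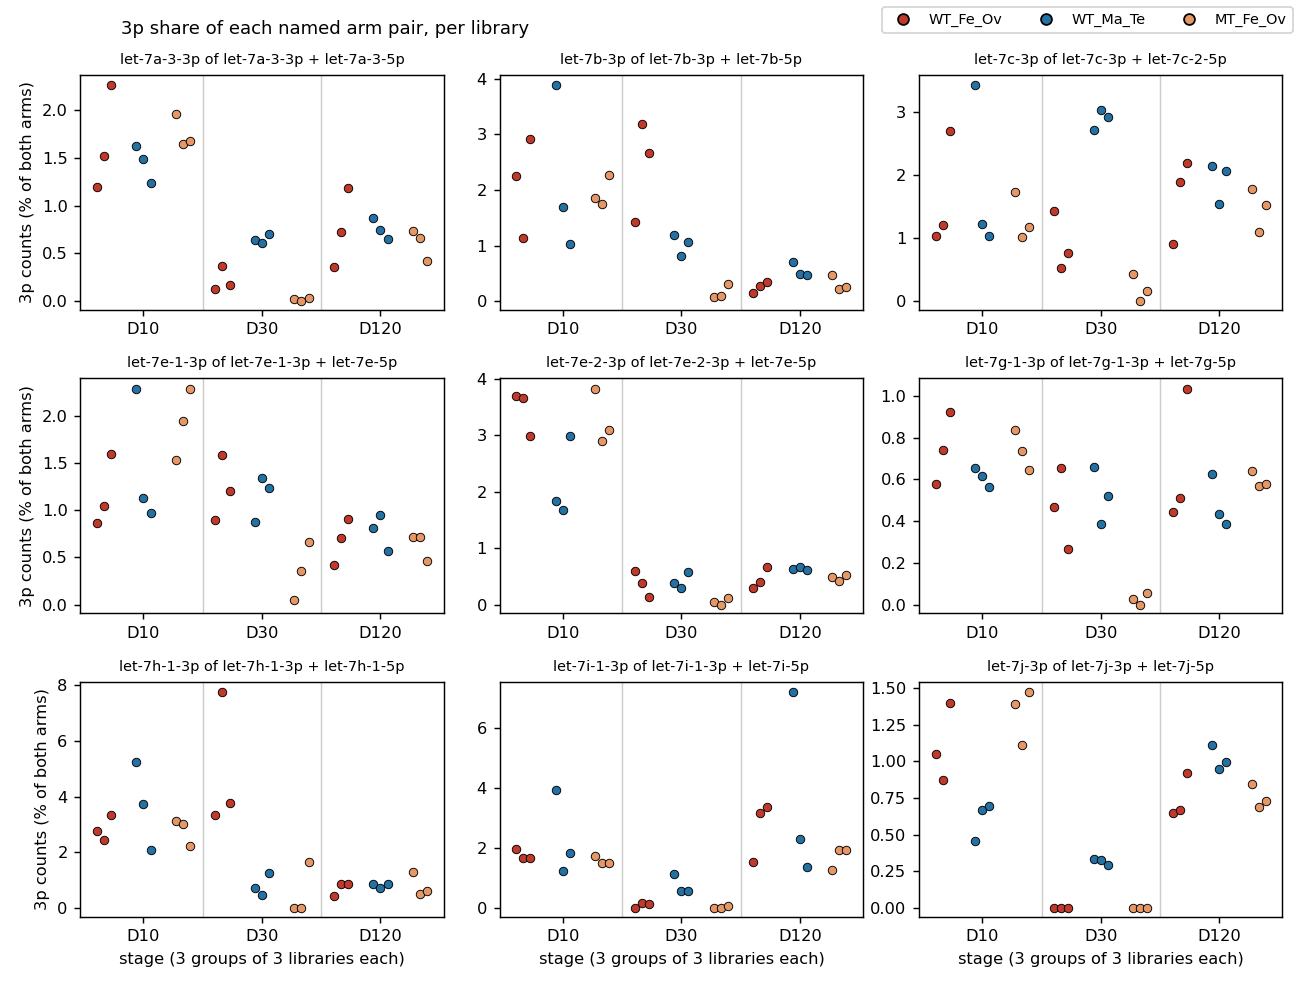
The 3p percentage of both arms (vertical axis, linear scale) for the 9 let-7 pairs, with 1 point per library, by stage and genotype. At D30 the MT_Fe_Ov points lie lowest for let-7a-3 (0% to 0.0303%) and let-7b (0.0777% to 0.315%).

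Hairpins of the miR-99, miR-100 and miR-125 families neighbour some let-7 genes in many animals, and 12 rows of these families were in the table. At D30, 2 of 10 tested were higher (16.4% of all) and 2 lower (30.4% of all) in WT_Fe_Ov than in WT_Ma_Te, where let-7 had 10 higher and 0 lower of 20, and the difference between these groups of rows was not tested. miR-99a-5p was lower in the XX ovary (3346 ± 413 against 12113 ± 255 RPM, log2 fold change -1.77, SE 0.34, adjusted p = 0.0021). miR-125b-3-3p was higher (726 ± 102 against 61.6 ± 12.8 RPM, 3.65, SE 0.47, adjusted p = 0.000313). At D120, 1 of 11 was called against the testis, miR-125a-1-3p in MT_Fe_Ov (1.05, adjusted p = 0.0152), which stood at 0.83 (adjusted p = 0.0368) in WT_Fe_Ov, short of the fold minimum. From D10 to D30 6 of 12 rose and 3 fell in WT_Fe_Ov, 3 rose and 3 fell in WT_Ma_Te, and 4 rose and 0 fell in MT_Fe_Ov. miR-100-5p rose in all 3 genotypes, by 1.41, 1.54 and 1.41.

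The pattern of let-7a-3-5p over the 9 group means, on log2(RPM + 1), was set against all other rows by Pearson's r, as a description over groups that share libraries of a stage. Within the family, let-7a-2-5p was closest with r = 0.992, and let-7d-5p (0.724) and let-7c-2-5p (0.686) were the least alike of the 5p members. Outside the family the nearest rows were miR-425-5p with r = 0.959, miR-202-3p with 0.931, miR-30e-1-3p with 0.890, miR-25a-3p with 0.887 and miR-191-5p with 0.879. miR-425-5p averaged 195 to 313 RPM in the D10 groups, 2419, 1957 and 3734 RPM at D30 and 2705, 838 and 2621 RPM at D120 (WT_Fe_Ov, WT_Ma_Te and MT_Fe_Ov). Its D120 testis level was below both ovaries, as it was for let-7a-3-5p.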

How the data were processed

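Small RNA of 17 to 32 nucleotides was cloned and sequenced by the authors from 27 gonad libraries (9 groups of 3). The authors removed short and low-quality reads, mapped the rest to the medaka genome (ASM223467v1) with miRDeep and counted reads on FishmiRNA mature miRNAs. The deposited counts are whole reads per miRNA, not normalized. The deposited RPM values are the counts per 1000000 listed miRNA counts of a library, and recomputed RPM differed by at most 4.97e-05. How reads matching several members were assigned is not given in the sources used here. Library totals of 54535 to 8818687 set the precision, and 3 counts were taken as the limit of a listed 0.

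Counts were tested with edgeR 4.0.16 (R 4.3.3), TMM scaling, a quasi-likelihood F test and Benjamini-Hochberg adjustment over all miRNAs that reached 10 counts in 3 or more libraries of a fit. Genotype contrasts used the 9 libraries of a stage, and stage contrasts and interactions all 27. Standard errors were the log2 fold change divided by the square root of F. Pairs of libraries within a group had a chi-square per degree of freedom of at least 27.0, so none was counted as a duplicate, and pairs across groups were not compared. The code was tested on simulated data. Other settings tried were library totals, RLE scaling, the Wald test of DESeq2 1.42.0, a minimum of 1 count, a replicate block, an adjusted p of 0.01, other sets of libraries, other totals for the share, and leaving out each replicate. The totals without tissue rows and without rows listed at 0, and arm percentages with 0 set to 3 counts, were chosen after seeing the data. The text gives every library for the 5 most abundant 5p and 3 most abundant 3p members, and per contrast at most 3 non-overlapping DEMs a direction by size, with members called in opposite directions at D30 and D120. Other members it names were chosen after their values were seen. The members and lists were chosen with earlier results of these data known. Python 3.11.15, numpy 2.4.6, pandas 2.3.3, scipy 1.17.1 and matplotlib 3.10.9 were used.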

Additional observations from a re-analysis of the deposited data

Results flagged for a closer look

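The values below were picked out because a test of the difference itself, the interaction of stage and genotype by edgeR, found that a let-7 genotype difference was not the same at D30 and D120. Each is a difference of 2 log2 fold changes, D120 minus D30. No explanation was tested. For the ovary of XX fish against the testis, the values were 8.22 for let-7j-3p, 7.51 for let-7a-6-3p, -1.87 for let-7c-2-5p, -2.15 for let-7h-1-5p, -2.31 for let-7a-5-3p, -2.32 for let-7d-5p, -2.41 for let-7i-5p, -3.27 for let-7b-3p and -4.97 for let-7h-1-3p. For the ovary of XY fish against the testis, they were 8.27 for let-7j-3p, 3.65 for let-7a-3-3p, 2.14 for let-7b-3p, -1.76 for let-7h-1-5p, -1.76 for let-7g-5p, -1.81 for let-7j-5p, -2.14 for let-7c-2-5p and -2.41 for let-7i-5p. For the XY against the XX ovary, they were 5.41 for let-7b-3p, 3.63 for let-7h-1-3p, 3.03 for let-7a-3-3p, 2.46 for let-7a-5-3p, 2.29 for let-7g-1-3p and -1.48 for let-7j-5p. The values of let-7j-3p and let-7a-6-3p come from D30 ovary libraries all listed at 0, so their size depends on the fit and bounds nothing. Without D30 MT_Fe_Ov replicate 3, let-7j-5p (-0.78) and let-7g-5p (-0.86) were not called, and of the let-7c-2-5p values the one for the XY ovary against the testis was at -1.20 and not called. Over the 12 fits that left out 1 library, the XY against XX ovary calls of let-7j-5p and let-7g-1-3p were lost in 9 and 4, and the call of let-7g-5p for the XY ovary against the testis in 8.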

How the results depend on the processing

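The only let-7 values whose direction turned while past the threshold, in the report or under an alternative, were 4 stage values of MT_Fe_Ov without D30 MT_Fe_Ov replicate 3. Over the libraries left out, let-7e-2-3p (D30 against D10) ranged from -0.61 to 2.18, let-7h-1-3p from -8.54 to 1.56 for D30 against D10 and from -0.63 to 9.47 for D120 against D30, and let-7e-1-3p (D120 against D30) from -1.62 to 1.79. For let-7h-1-3p the other D30 libraries were at 0, so these fitted sizes bound nothing. Of the counts of members called, 238 stayed within 1.5 times the reported one while 14 moved further. Scaled by library totals, 8 members were called for MT_Fe_Ov against WT_Fe_Ov at D30 and 4 for MT_Fe_Ov against WT_Ma_Te at D120. At an adjusted p of 0.01 the counts were 5 and 2 for MT_Fe_Ov against WT_Ma_Te and against WT_Fe_Ov at D30, and 4 for MT_Fe_Ov against WT_Ma_Te at D120. With all 27 libraries in 1 fit they were 9 for the D30 ovaries and 3 for MT_Fe_Ov against WT_Ma_Te at D120. With only the 12 libraries compared, the interaction of the ovaries had 2 members. Leaving out 1 library gave 9 to 10, 5 to 11 and 3 to 7 members in the D30 contrasts (WT_Fe_Ov against WT_Ma_Te, MT_Fe_Ov against WT_Ma_Te, MT_Fe_Ov against WT_Fe_Ov), 2 to 7, 4 to 10 and 0 to 0 at D120, and 4 to 7 in the interaction of the ovaries. The cause of these changes was not tested. Whether the replicate numbers pair the samples was not settled. Same-numbered libraries of different groups had correlations of their deviations from -0.25 to 0.19 at D10, -0.03 to 0.04 at D30 and -0.10 to 0.21 at D120. For other numbers they ran from -0.27 to 0.25, -0.07 to 0.06 and -0.27 to 0.23. The same-number means were slightly higher, at 0.012, 0.018 and 0.029 against -0.007, -0.009 and -0.014. With 3 libraries per group these values cannot exclude a pairing. With the replicate number as a block, 7 members were called for MT_Fe_Ov against WT_Ma_Te at D30, 4 for MT_Fe_Ov against WT_Fe_Ov at D30 and 7 in each ovary contrast with testis at D120.

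The let-7 share moved beyond the replicate SD when the 3 most abundant miRNAs outside let-7 left the total, to 2.73% in D10 WT_Fe_Ov, 39.8% in D30 WT_Fe_Ov, 14.1% in D30 WT_Ma_Te, 12.7% in D120 WT_Ma_Te and 21.5% in D120 MT_Fe_Ov. Without the tissue rows it was 3.31%, 2.77% and 3.37% in D10 WT_Fe_Ov, WT_Ma_Te and MT_Fe_Ov, and without the rows listed at 0 it was 16.3% in D30 WT_Ma_Te and 20.3% in D120 WT_Fe_Ov, by construction of smaller totals. Depth limited the 3p arms in D30 MT_Fe_Ov, where 3 counts equalled up to 55.0 RPM.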
